A study of Mus musculus with 28 samples.

Results

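The MS4A genes examined here were Ms4a4a, Ms4a4b, Ms4a4c, Ms4a4d, Ms4a6b, Ms4a6c, Ms4a6d and Ms4a7. They were taken as a list of gene symbols, chosen with earlier results of these data known. All 8 were found among the 54532 genes of the count table. The MS4A family encodes membrane proteins that cross the lipid bilayer several times and often sit beside, and modulate, other immune receptors. Its best known members are CD20 (Ms4a1) on B cells and the beta chain of the high-affinity IgE receptor (Ms4a2) on mast cells and basophils. Several other members are made by monocytes and macrophages, where Ms4a4a has been described next to Dectin-1 and Ms4a7 is used as a marker of tissue macrophages.

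The 28 cultures were bone marrow-derived macrophages (BMDMs), grown with recombinant murine M-CSF from the marrow of C57/B6JB mice (the strain as the study's methods write it) aged 8 to 12 weeks. All were given fresh medium with 1 mM CaCl2 and were then incubated for 3.5 h or 16 h with PBS as control, with 10 µg/ml of pd-VWF, which is VWF purified from human plasma, or with 100 ng/ml of LPS, with 5 control, 5 VWF and 4 LPS cultures at each time. The sources used here do not say what the replicate numbers stand for, so the p-values measure only the spread between these cultures.

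Within the longer cluster of MS4A genes on chromosome 19 (GRCm38), all 8 genes lie in a single stretch. It runs from Ms4a7 (chr19:11321039-11336146, minus strand) through Ms4a4a (chr19:11375523-11392790, plus), Ms4a4c (chr19:11404770-11427246, plus), Ms4a4b (chr19:11443553-11467055, plus), Ms4a6c (chr19:11469366-11482192, plus), Ms4a6b (chr19:11516512-11531256, plus) and Ms4a4d (chr19:11536801-11558467, plus) to Ms4a6d (chr19:11586604-11604849, minus). All are protein coding, and their coding sequences fall into the subgroups that the names give. Ms4a4b and Ms4a4c had 91.78% identical bases over 681 aligned coding bases, and Ms4a6b and Ms4a6c 84.96% over 645. Ms4a7 was the most distant, with at most 59.35% identity to another member. Reads could be split between close copies only in short stretches: 1.66% of the windows of 100 bases in Ms4a4c transcripts were also found in Ms4a4b, 0.473% of those in Ms4a4b were found in Ms4a4c or Ms4a2, 0.513% of those in Ms4a6c were found in Prdm11, and 0 of those in Ms4a4a, Ms4a4d, Ms4a6b, Ms4a6d and Ms4a7 were found in another gene.

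Promoter sequence was held for 7 of the 8 genes, in 8 windows from RefSeq (GRCm38.p6), because Ms4a7 has a pair of start sites. The sequences upstream of the closest pairs are shown, since Ms4a6b and Ms4a6c differed in the same direction in every comparison, whereas Ms4a4c was the most abundant member with LPS at 16 h and its relative Ms4a4b stayed under 1 RPKM. The RefSeq starts of Ms4a6b and Ms4a4c lie 2047 and 2891 bases inside the gene bounds given above. Bases that belong to an annotated exon were left out, all 4 lie on the plus strand, and capitals mark the longest run shared by the printed stretches of a pair. The stretches are chr19:11518309-11518452 for Ms4a6b, chr19:11469118-11469365 for Ms4a6c, chr19:11443308-11443552 for Ms4a4b and chr19:11407411-11407660 for Ms4a4c.
Ms4a6b: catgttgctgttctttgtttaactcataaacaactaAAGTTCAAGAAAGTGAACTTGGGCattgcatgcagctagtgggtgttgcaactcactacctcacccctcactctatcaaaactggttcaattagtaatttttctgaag
Ms4a6c: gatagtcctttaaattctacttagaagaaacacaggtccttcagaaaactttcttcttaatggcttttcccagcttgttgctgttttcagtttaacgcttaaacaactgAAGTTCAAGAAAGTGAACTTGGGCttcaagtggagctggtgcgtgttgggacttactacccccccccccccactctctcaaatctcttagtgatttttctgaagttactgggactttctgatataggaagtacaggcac
Ms4a4b: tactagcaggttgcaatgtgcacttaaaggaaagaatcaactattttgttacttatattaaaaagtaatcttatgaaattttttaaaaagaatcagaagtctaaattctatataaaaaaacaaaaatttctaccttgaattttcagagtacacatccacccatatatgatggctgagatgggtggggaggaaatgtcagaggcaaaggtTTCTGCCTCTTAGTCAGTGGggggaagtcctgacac
Ms4a4c: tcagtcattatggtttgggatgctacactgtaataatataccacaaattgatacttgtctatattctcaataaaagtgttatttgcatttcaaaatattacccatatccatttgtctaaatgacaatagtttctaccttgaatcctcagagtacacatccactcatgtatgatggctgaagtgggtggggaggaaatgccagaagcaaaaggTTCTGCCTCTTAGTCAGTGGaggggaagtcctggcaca

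The shared run was 24 bases long in the printed stretches of the Ms4a6 pair and 20 bases long in those of the Ms4a4 pair. With the exon bases kept, the longest run shared by Ms4a6b and Ms4a6c was 48 bases, beginning at position -118 in Ms4a6b and -49 in Ms4a6c. Both printed stretches end inside this run, so it is printed only in part and in small letters. The core of the interferon-stimulated response element, GAAANNGAAA, was searched on both strands of the whole windows (from 250 bases before to 50 bases after the start) and was in 0 of the 8, against 3.44% of the 32851 promoters of the table. The STAT element TTCNNNGAA was also in 0 of 8, against 8.30% of all promoters. A shorter element, GAAANNGAA, was searched after the sequences had been seen and was in 4 of 8 windows, against 8.56% of all. It begins at position -206 from the start of Ms4a6b and at position -133 from that of Ms4a6c, as GAAAGTGAA inside the capitals, and is in both windows of Ms4a7. The kappaB consensus was in the window of Ms4a4a alone (8.46% of all promoters), and the PU.1 core GAGGAA was in the windows of Ms4a4b and Ms4a4c and in 1 window of Ms4a7 (28.3%). Each longer element that contains a shorter one overlaps it, and a match is a description of letters only.

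Total counts were between 41131209 and 77699206 per culture. Levels are given as RPKM, the read count divided by exon length and by library size after scaling with TMM factors, which correct for a few abundant genes taking a large share of the counts. These factors were 1.04 to 1.24 in control, 0.899 to 1.09 in VWF and 0.745 to 0.849 in LPS cultures. Control 16 h replicate 5 and LPS 16 h replicate 4 stood apart from their groups, with correlations of 0.913 and 0.950 to the mean of the others, against 0.977 or more in the other 26 cultures. All 8 macrophage markers (Adgre1, Csf1r, Itgam, Cd68, Fcgr1, Mertk, Lyz2 and Cd14) reached 10 TPM, with a summed level between 3288 and 17470 RPKM. The summed level of 6 T cell markers was at most 0.953 RPKM in control and VWF cultures, 10.8 to 19.7 with LPS at 3.5 h and 0.818 to 1.32 with LPS at 16 h. The sum with LPS at 3.5 h was mostly Lck (15.1 ± 3.94 RPKM, SD, n = 4) with Cd3g at 0 counts and Cd3e at 0 or 1. The B cell, NK cell, mast cell and basophil, dendritic cell and neutrophil lists summed to at most 9.09, 0.540, 2.68, 6.58 and 5.32 RPKM in any culture. In bulk RNA, fewer cells of a type and less RNA per cell cannot be told apart.

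Summed over the 8 genes, levels were lowest in control at 16 h and highest with LPS at 16 h. The summed level of the 8 genes was 329 ± 47.2 RPKM (SD, n = 5) in control at 3.5 h, 532 ± 84.2 (n = 5) with VWF and 755 ± 111 (n = 4) with LPS. At 16 h it was 129 ± 14.5 (n = 5) in control, 1034 ± 157 (n = 5) with VWF and 3034 ± 265 (n = 4) with LPS. The lowest VWF culture at 16 h (783 RPKM) lay above the highest control culture (153 RPKM) and below the lowest LPS culture (2687 RPKM). Ms4a7 gave 48.7% of it in control at 3.5 h and 6.0% with LPS at 16 h, whereas Ms4a4c gave 0.726% and 42.7%. Ms4a6d was between 29.2% and 46.1% of the sum in every group.

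**Figure D1:**
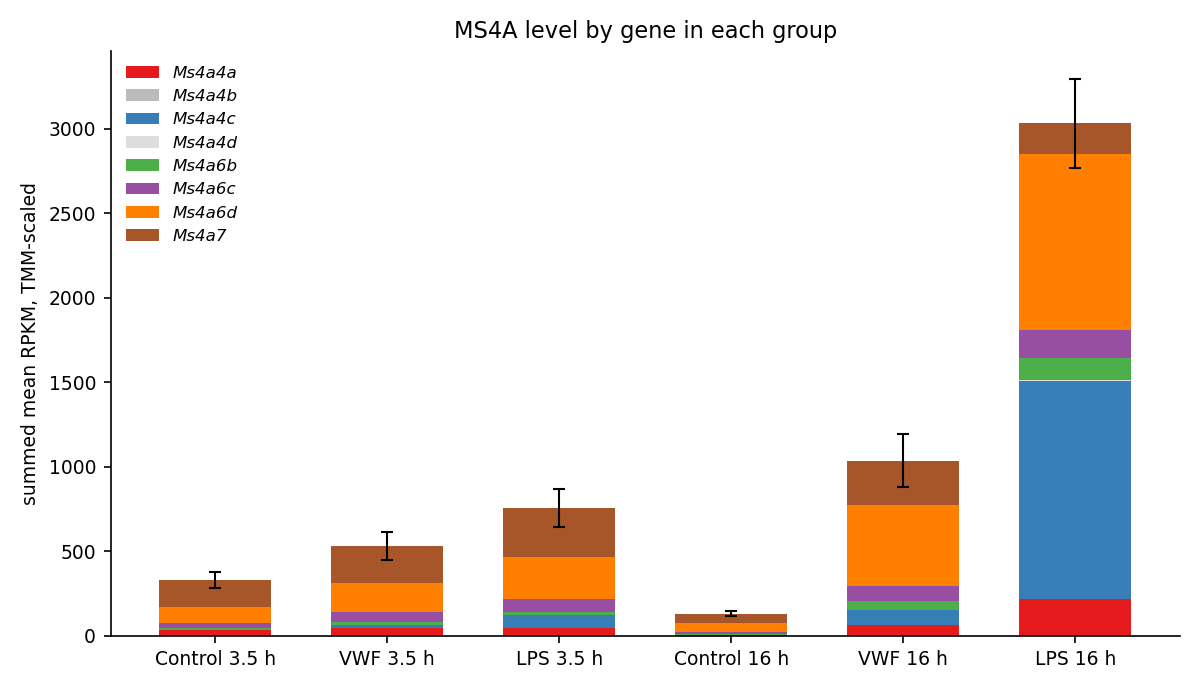
Summed mean level of the MS4A genes in RPKM in each of the 6 groups, with colours for the genes and bars for the SD of the sum over cultures. Control at 16 h has the lowest sum (129 RPKM) and LPS at 16 h the highest (3034 RPKM), with Ms4a4c and Ms4a6d making up most of the latter.

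**Figure D2:**
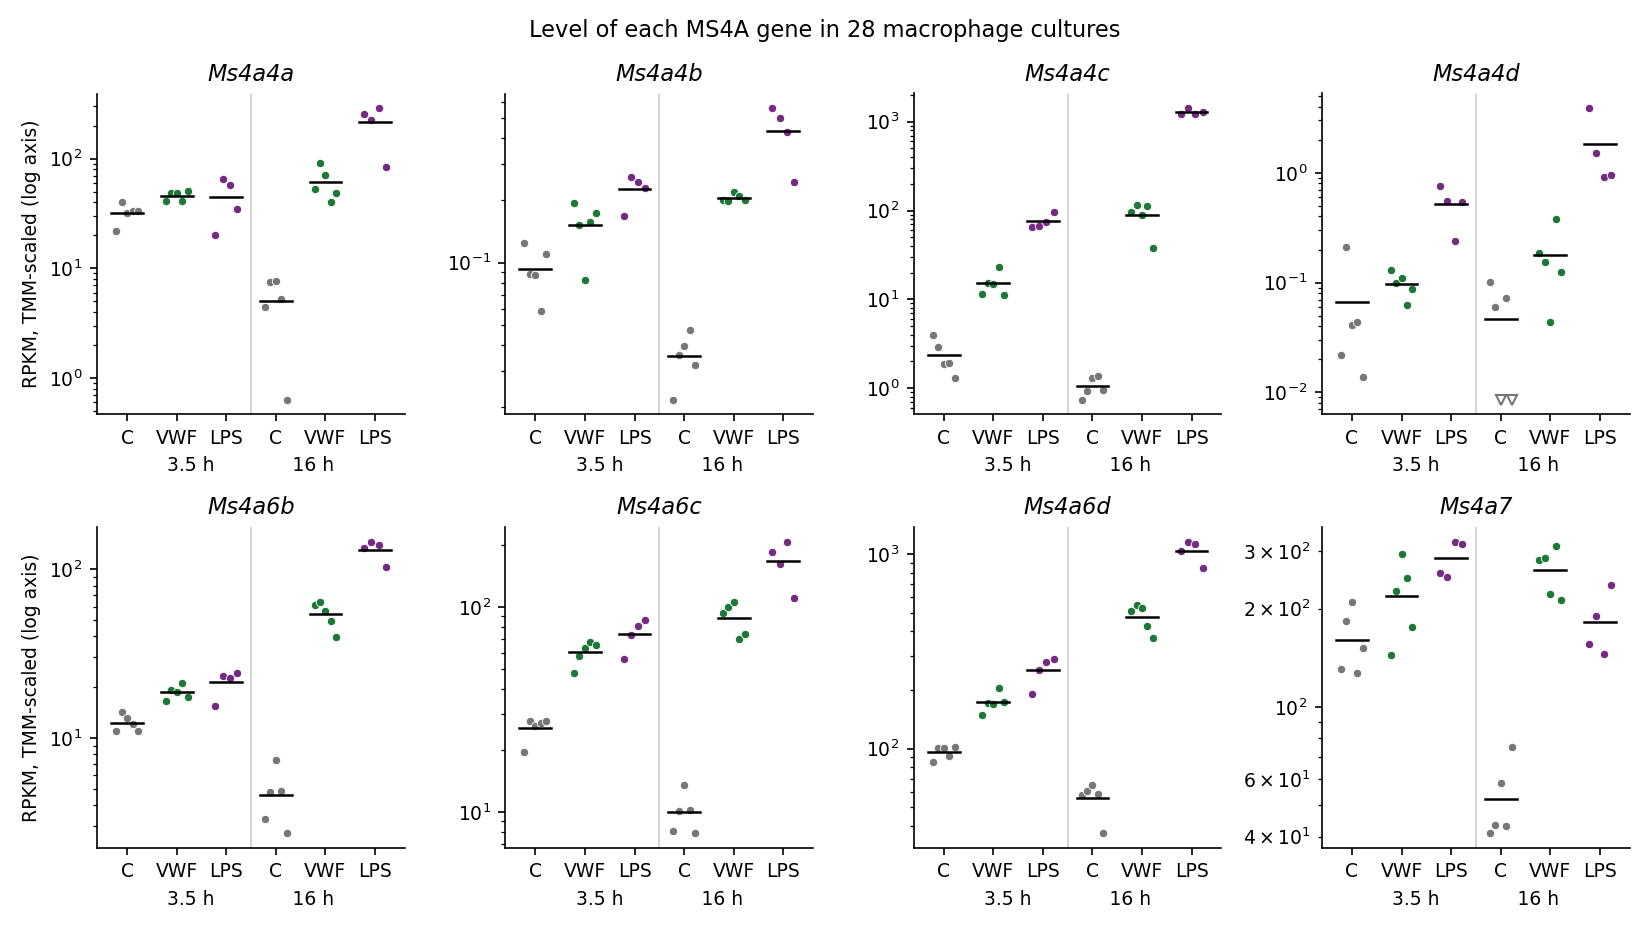
Level of each gene in RPKM on a log axis in 28 cultures, with a point for each culture, open triangles at the bottom for cultures at 0 and black lines for group means. The control cultures at 16 h are the lowest group of every gene, and LPS at 16 h is the highest group of 7 genes but not of Ms4a7.

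A gene was tested when at least 1 culture of the comparison reached 10 TPM, and it was called when its adjusted p was under 0.05 and its log2 fold change was beyond 1 in either direction. Ms4a4b and Ms4a4d never reached 10 TPM and were not tested, so each count below is over 6 tested genes. Adjusted p-values are those of edgeR's quasi-likelihood test over all genes of a comparison. Ms4a4c passed the filter at 16 h only through the treated cultures, so its difference from control there was partly fixed by the filter. The control cultures serve both agonists, and the values for VWF and LPS against control are set side by side without a measure of their likeness.

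Ms4a4c had the largest response of the members tested against control. It was at 3.94, 2.92, 1.86, 1.93 and 1.30 RPKM in the control cultures at 3.5 h, at 11.5, 15.4, 14.8, 23.5 and 11.3 with VWF and at 65.1, 67.2, 74.8 and 95.2 with LPS. No culture of these 3 groups overlapped with another group. It rose with VWF at 3.5 h by 2.58 ± 0.32 (log2 fold change ± SE, edgeR adjusted p = 4.61e-05) and with LPS by 4.92 ± 0.31 (edgeR adjusted p = 1.34e-07), and VWF against LPS gave -2.32 ± 0.20 (log2, edgeR adjusted p = 7.27e-06).
At 16 h Ms4a4c was at 0.742, 0.937, 1.31, 1.39 and 0.957 RPKM in control, at 95.3, 115, 88.4, 113 and 37.7 with VWF and at 1231, 1425, 1222 and 1301 with LPS. The groups were again separate, although VWF replicate 5 was far below the other 4 VWF cultures. The log2 fold change from control was 6.29 ± 0.36 with VWF (edgeR adjusted p = 1.22e-06) and 10.21 ± 0.25 with LPS (edgeR adjusted p = 9.61e-09), and VWF against LPS gave -3.88 ± 0.30 (edgeR adjusted p = 2.78e-06).

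Its close relatives Ms4a4b and Ms4a4d stayed low. Ms4a4b, described in T cells, has an annotated exon length of 8780 bases, the longest of the 8, and had a mean between 0.0353 RPKM in control and 0.434 RPKM with LPS at 16 h, from 15 to 28 counts per culture in the former and 87 to 230 in the latter. Ms4a4d was at 0 in 2 control cultures at 16 h and at 3.89, 1.52, 0.914 and 0.953 RPKM with LPS at 16 h, the only group in which all cultures exceeded its level in all others. With no filter on low genes, Ms4a4b was 2.5 ± 0.27 (VWF) and 3.67 ± 0.35 (LPS) above control at 16 h on the log2 scale, and Ms4a4d was 1.84 ± 0.87 (VWF) and 5.26 ± 0.83 (LPS) above it. The adjusted p from edgeR was 0.234 for Ms4a4d with VWF and at most 0.000393 for the other 3. The highest level of either gene in any group mean was 1.82 RPKM, for Ms4a4d with LPS at 16 h.

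Ms4a4a, the fourth gene of the subgroup, was called against control at 16 h but not at 3.5 h. At 3.5 h it was at 22.1, 40.6, 31.8, 33.5 and 33.4 RPKM in control, at 41.5, 48.3, 48.6, 41.2 and 50.4 with VWF and at 20.1, 65.6, 57.5 and 34.5 with LPS. Every VWF culture was above every control culture, by a small margin (0.44 ± 0.13, edgeR adjusted p = 0.0188, under the fold threshold), whereas the LPS cultures spread on both sides of the control range (0.42 ± 0.29, edgeR adjusted p = 0.225). At 16 h the control cultures were at 4.4, 7.46, 7.63, 5.27 and 0.633 RPKM, the VWF cultures at 52.6, 92.4, 71.1, 40.5 and 49.2 and the LPS cultures at 257, 227, 290 and 83.8. Both agonists were above control without overlap, and the lowest LPS culture, replicate 4, was below the highest VWF culture. The log2 fold change from control was 3.47 ± 0.53 with VWF (edgeR adjusted p = 0.000600) and 5.37 ± 0.66 with LPS (edgeR adjusted p = 9.11e-05), and VWF against LPS gave -1.84 ± 0.35 (edgeR adjusted p = 0.00127). Without control replicate 5 the first was 3.20 and the second 5.08, and without LPS replicate 4 the second was 5.63.

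The 3 Ms4a6 genes moved in the same direction at different levels. Ms4a6d, which has been described in a complex with the complement receptor VSIG4, was at 85.7, 100.3, 100.2, 91.2 and 102 RPKM in control at 3.5 h, at 148, 171, 169, 206 and 173 with VWF and at 191, 254, 277 and 287 with LPS. Both agonists were above all control cultures, and 1 LPS culture was below the highest VWF culture. Ms4a6d differed from control by 0.78 ± 0.08 with VWF (edgeR adjusted p = 1.31e-05), which is under the fold threshold, and rose with LPS by 1.35 ± 0.11 (edgeR adjusted p = 9.39e-07).
At 16 h Ms4a6d was at 57.8, 60.7, 65.3, 58.5 and 36.7 RPKM in control, at 509, 549, 530, 428 and 370 with VWF and at 1032, 1160, 1129 and 850 with LPS, so that the 3 groups were separate. It rose with VWF by 2.98 ± 0.17 (edgeR adjusted p = 1.32e-06) and with LPS by 4.19 ± 0.18 (edgeR adjusted p = 8.46e-08), and VWF against LPS gave -1.16 ± 0.14 (edgeR adjusted p = 5.99e-05). Vsig4 itself was at or under a mean of 0.174 RPKM in all 6 groups.

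Ms4a6c was at 19.8, 27.8, 26.2, 27.1 and 27.8 RPKM in control at 3.5 h, at 47.4, 57.6, 63.1, 67.7 and 65 with VWF and at 55.9, 72.9, 80.4 and 86.3 with LPS. The agonist groups overlapped each other but not the control. It was the second member to be called with VWF at 3.5 h (1.15 ± 0.11, edgeR adjusted p = 4.09e-06) and was 1.48 ± 0.13 above control with LPS (edgeR adjusted p = 1.39e-06). At 16 h it was at 7.89 to 13.6 RPKM in control, with a median of 10.1, at 70.0 to 106 with VWF, with a median of 94.1, and at 111 to 209 with LPS, with a median of 174. It rose with VWF by 3.04 ± 0.18 (edgeR adjusted p = 1.32e-06) and with LPS by 4.03 ± 0.22 (edgeR adjusted p = 4.55e-07). VWF against LPS gave -0.94 ± 0.19 (edgeR adjusted p = 0.00168), which missed the fold threshold and passed it without LPS replicate 4 (-1.09). Of the exon length of Ms4a6c, 53.1% is overlapped by BE692007 on the opposite strand. Without a stated strand setting, reads of the overlap cannot be assigned to either gene, and BE692007 itself went from 1.31 ± 0.13 RPKM in control at 3.5 h to 4.58 ± 0.38 with VWF and 4.6 ± 0.75 with LPS, and from 0.795 ± 0.26 in control at 16 h to 5.02 ± 1.15 and 9.33 ± 1.39.

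Ms4a6b was the lowest of the 3, at 10.9 to 14.3 RPKM in control (median 12.1), 16.5 to 21.1 with VWF (median 18.7) and 15.3 to 24.1 with LPS (median 23.0) at 3.5 h. Both agonists were above control without overlap, by 0.53 ± 0.09 with VWF (edgeR adjusted p = 0.000596) and 0.75 ± 0.14 with LPS (edgeR adjusted p = 0.000528), under the fold threshold in each case. This separation depended on the scaling. As TPM, Ms4a6b was at 36.8 to 45.4 in control, 43.9 to 51.4 with VWF and 31.1 to 51.2 with LPS. TPM uses no TMM factors and also divides by the sum of length-scaled counts in place of library size. The part of each in the overlap was not tested. At 16 h its range was 2.72 to 7.36 RPKM in control, 39.5 to 64.0 with VWF and 103 to 146 with LPS, and these ranges were separate. It rose with VWF by 3.45 ± 0.27 (edgeR adjusted p = 6.58e-06) and with LPS by 4.79 ± 0.29 (edgeR adjusted p = 7.90e-07), and VWF against LPS gave -1.30 ± 0.16 (edgeR adjusted p = 6.08e-05).

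Ms4a7 had a different order of groups. At 3.5 h it was at 130, 183, 209, 127 and 151 RPKM in control, at 144, 226, 295, 249 and 176 with VWF and at 258, 249, 321 and 316 with LPS. The VWF cultures overlapped with both other groups (0.37 ± 0.19 from control, edgeR adjusted p = 0.143), and the LPS cultures were all above control (0.79 ± 0.15, edgeR adjusted p = 0.000765, under the fold threshold). At 16 h it was at 40.9, 43.4, 58.3, 43.1 and 75.3 RPKM in control, at 282, 287, 222, 312 and 213 with VWF and at 156, 190, 146 and 236 with LPS. The highest control culture was replicate 5 and the highest LPS culture was replicate 4, the cultures that stood apart. Ms4a7 rose with VWF by 2.22 ± 0.20 (edgeR adjusted p = 1.98e-05) and with LPS by 1.76 ± 0.24 (edgeR adjusted p = 0.000183). It was the only one of the 6 that was higher with VWF than with LPS at 16 h, by 0.51 ± 0.18 (edgeR adjusted p = 0.0358), with overlapping cultures and under the fold threshold. With single cultures left out, this difference lay between 0.40 and 0.66, with an edgeR adjusted p of up to 0.0968.

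Counted over the 6 tested genes, 2 were called higher with VWF at 3.5 h, against 9.18% of the 8200 genes tested in that comparison, and 3 with LPS, against 12.8% of 8190. Their median log2 fold changes were 0.65 and 1.07, beside 0.0015 and -0.02 over all genes. All cultures were above all control cultures for 5 tested genes with VWF, as for 21.7% of genes, and for 5 with LPS, as for 27.2%. As TPM without TMM factors, Ms4a4a and Ms4a6b overlapped control with VWF, and Ms4a6b and Ms4a7 with LPS. With scaling by library size in place of TMM, which put the median of all genes at -0.22 with VWF and -0.54 with LPS, Ms4a4c alone was called in each. At 16 h all 6 tested genes were called higher with VWF, where 4.55% of 7798 genes were, and all 6 with LPS, where 15.3% of 7994 were. The medians were 3.24 and 4.49, beside -0.03 and -0.03 over all genes, and the cultures of all 6 were separate from control with VWF, as for 17.6% of genes, and with LPS, as for 25.7%. Against LPS, VWF was lower for 1 tested gene at 3.5 h (Ms4a4c; 6.71% of 7500 genes were called lower) and for 4 at 16 h (Ms4a4a, Ms4a4c, Ms4a6b and Ms4a6d; 14.5% of 7574), of which Ms4a4a and Ms4a4c stayed called with library size scaling. Markers of cell types moved in the same cultures. Of the 8 macrophage markers, 3 were called higher with VWF at 16 h (Adgre1 by 1.80 ± 0.21, Fcgr1 by 2.89 ± 0.23 and Itgam by 1.18 ± 0.09) and Cd14 lower (-1.63 ± 0.13), and their summed level was 11989 to 17470 RPKM with VWF and 3288 to 11353 in control. With LPS at 16 h, 3 were called higher (Cd14, Adgre1 and Fcgr1) and Lyz2 lower, with a sum of 5193 to 8249 RPKM. The 4 dendritic cell markers summed to 0.0959 to 0.361 RPKM in control, 2.81 to 4.32 with VWF and 4.71 to 5.89 with LPS at 3.5 h, and 0.193 to 0.603 with VWF and 2.92 to 6.58 with LPS at 16 h. Xcr1 was most of this sum in the agonist cultures, at a mean of 4.48 RPKM with LPS at 16 h, with Flt3, Zbtb46 and Siglech at 0.0105, 0.0593 and 0.0422. The 6 neutrophil and precursor markers summed to 0.154 to 1.68 RPKM in control, 2.61 to 5.32 with VWF and 0.974 to 1.77 with LPS at 16 h, where Camp was higher with VWF (3.65 ± 0.86, edgeR adjusted p = 0.00929), and was tested only because VWF cultures reached 10 TPM. The 5 B cell markers summed to 4.27 to 9.09 RPKM in control, 5.21 to 6.80 with VWF and 0.695 to 2.46 with LPS at 16 h, where Cd79b was lower with LPS (-2.23 ± 0.43, edgeR adjusted p = 0.00178), and was tested only because control cultures reached 10 TPM. The part of these cells in the members' levels was not tested.

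**Figure D3:**
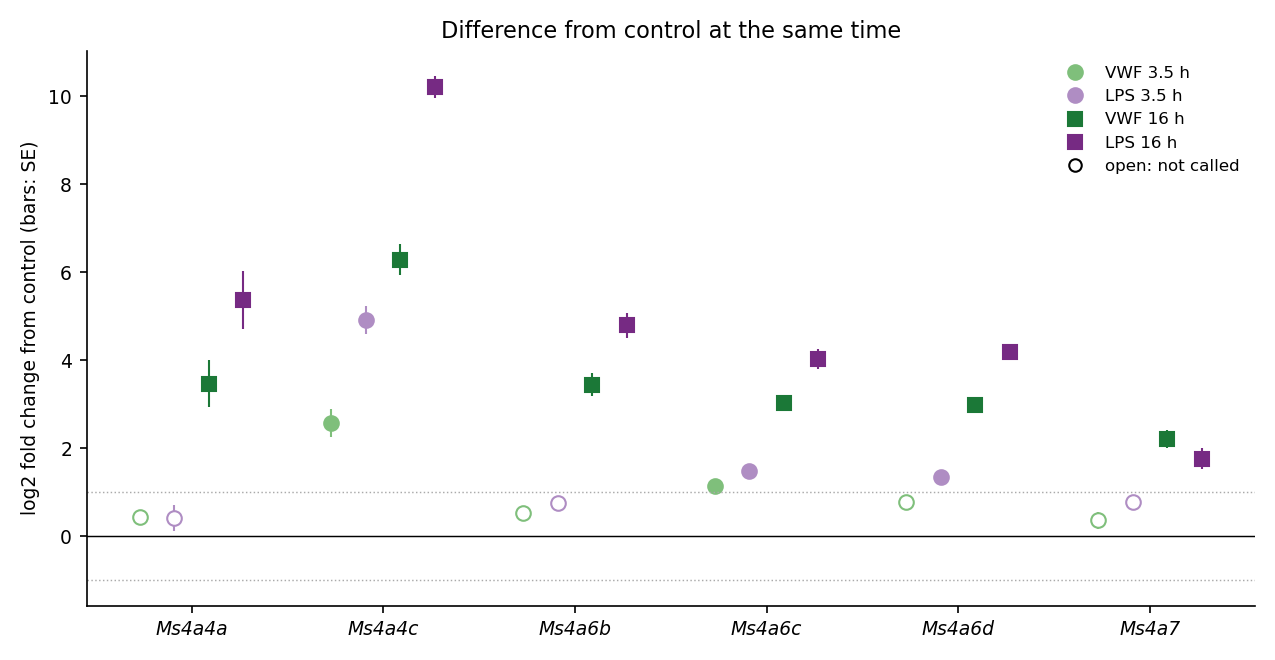
Log2 fold change from control at the same time for the 6 tested genes, with bars for the SE, circles for 3.5 h, squares for 16 h, green for VWF, purple for LPS and open symbols for genes not called. All 12 values at 16 h are called and lie above those of the same agonist at 3.5 h, and Ms4a7 is the gene at which VWF exceeds LPS at 16 h.

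The control cultures did not hold their level. From 3.5 h to 16 h without agonist, 5 of the 6 tested genes fell, against 4.99% of 8333 genes called lower, with a median of -1.34 beside 0.03 over all genes. Ms4a4a fell by 2.62 on the log2 scale (SE 0.48, edgeR adjusted p = 0.00180), and Ms4a7 fell by 1.55 (SE 0.21, edgeR adjusted p = 0.000321). The log2 fold change was -1.37 ± 0.22 for Ms4a6b (edgeR adjusted p = 0.000878), -1.31 ± 0.15 for Ms4a6c (edgeR adjusted p = 9.21e-05) and -1.12 ± 0.32 for Ms4a4c (edgeR adjusted p = 0.0187). The Ms4a4c cultures of both times overlapped. It passed the filter through Control 3.5 h replicate 1 alone and was not tested without that culture, and its call was lost when replicate number was fitted as a block (-1.03, edgeR adjusted p = 0.0809). Ms4a6d differed by -0.73 ± 0.13 (edgeR adjusted p = 0.00123), under the fold threshold. Without control replicate 5 at 16 h, the log2 fold change was -2.34 for Ms4a4a and -1.75 for Ms4a7.

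With VWF, 3 tested genes were higher at 16 h than at 3.5 h, where 9.15% of 7927 genes were called higher: Ms4a4c (2.61 ± 0.31, edgeR adjusted p = 1.75e-05), Ms4a6b (1.59 ± 0.13, edgeR adjusted p = 8.58e-07) and Ms4a6d (1.51 ± 0.12, edgeR adjusted p = 1.04e-06). Ms4a6c was 0.62 ± 0.13 higher (edgeR adjusted p = 0.00128) and Ms4a4a 0.46 ± 0.19 (edgeR adjusted p = 0.0498), both under the fold threshold, and Ms4a7 differed by 0.33 ± 0.18 (edgeR adjusted p = 0.126). With LPS, 5 tested genes were higher at 16 h, where 14.6% of 6987 genes were: Ms4a4c by 4.17 ± 0.14, Ms4a6b by 2.68 ± 0.16, Ms4a4a by 2.34 ± 0.45, Ms4a6d by 2.11 ± 0.14 and Ms4a6c by 1.25 ± 0.20. Their adjusted p from edgeR was at most 0.00186. Ms4a7 went the other way, with a log2 fold change of -0.58 ± 0.17 (edgeR adjusted p = 0.0143) and no overlap between the cultures of both times, under the fold threshold.

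**Figure D4:**
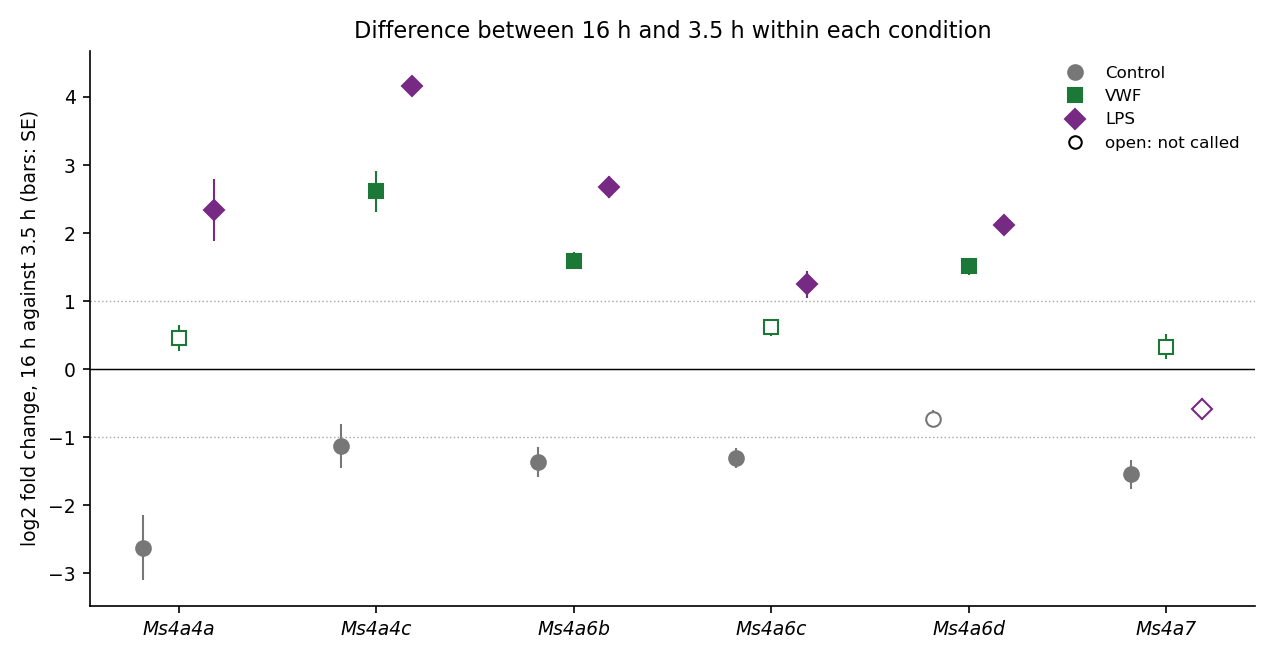
Log2 fold change between 16 h and 3.5 h within control (grey circles), VWF (green squares) and LPS (purple diamonds) for the 6 tested genes, with bars for the SE and open symbols for genes not called. All control values lie below 0, all VWF values above 0, and Ms4a7 with LPS lies below 0 (-0.58).

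The difference between the effects at the times was tested directly, as the interaction of treatment with time. The effect of VWF was larger at 16 h than at 3.5 h for 6 of the 6 tested genes, against 5.47% of 8660 genes called higher. This difference was 3.73 ± 0.45 for Ms4a4c, 3.06 ± 0.51 for Ms4a4a, 2.95 ± 0.27 for Ms4a6b, 2.23 ± 0.18 for Ms4a6d, 1.91 ± 0.20 for Ms4a6c and 1.87 ± 0.29 for Ms4a7, in log2 units, with an edgeR adjusted p of at most 9.90e-05. The interaction includes the change of the controls themselves, which was -2.62 for Ms4a4a, -1.55 for Ms4a7 and -1.12 for Ms4a4c. The effect of LPS was larger at 16 h for 5 of the 6, against 13.5% of 8748 genes: 5.30 ± 0.38 for Ms4a4c, 4.97 ± 0.71 for Ms4a4a, 4.06 ± 0.30 for Ms4a6b, 2.85 ± 0.19 for Ms4a6d and 2.56 ± 0.25 for Ms4a6c, with an edgeR adjusted p of at most 1.88e-05. For Ms4a7 it was 0.98 ± 0.29 (edgeR adjusted p = 0.00993), just under the fold threshold.

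Across the 28 cultures, log2 levels of Ms4a6b and Ms4a6d had the highest correlation of any pair of tested members (Pearson r = 0.984), and those of Ms4a7 with the other 5 had r between 0.625 and 0.779. These values are descriptions, since the cultures share 6 groups and the genes share a locus. Over 8861 genes, the pattern most like that of Ms4a4c was that of Irf7, an interferon regulatory factor (r = 0.989), followed by Oas3 (0.987), an antiviral oligoadenylate synthetase, and Ifitm3 (0.983), an antiviral membrane protein. Ms4a4a was nearest to C3ar1, the receptor for complement C3a (0.951), Lgals3bp (0.934) and Aoah (0.927), an enzyme that deacylates LPS. Ms4a6b and Ms4a6d were both nearest to Clec4a1, a C-type lectin gene (0.969 and 0.972), and Ms4a6c to Aoah (0.974), to the overlapping BE692007 (0.973) and to Clec4a1 (0.973). Ms4a7 was nearest to Cfp, which encodes properdin (0.966), to Tmem176a (0.929) and to C1qb, a chain of complement C1q (0.922). The median r over all genes was between -0.0021 and 0.0811 for the 6. Within the 18 treated cultures, 1 of the 3 genes nearest to Ms4a4c stayed among its first 3, and for each of the other 5 members 0 did.

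Of 13 other MS4A family genes, including the related Tmem176a and Tmem176b, 3 reached 10 TPM: Ms4a14, Tmem176a and Tmem176b. All 3 were called higher with VWF at 16 h, by 2.36 ± 0.28, 2.02 ± 0.12 and 1.85 ± 0.12, against 4.55% of all genes. All 3 were lower in control at 16 h than at 3.5 h, against 4.99%, with log2 fold changes of -1.78, -1.07 and -1.17. With LPS at 16 h, 2 were called higher (Ms4a14 and Tmem176a), against 15.3%. Ms4a14 and Tmem176a reached at most 6.05 and 9.47 TPM in control at 16 h, so in these 3 comparisons they passed the filter only through the higher group, which partly fixed their direction. At 3.5 h the log2 fold changes of the 3 were 0.31, 0.98 and 0.76 with VWF and -0.21, 0.83 and 0.63 with LPS, under the fold threshold. Tmem176b was higher with VWF than with LPS at 16 h (1.17 ± 0.15, edgeR adjusted p = 7.90e-05). Ms4a10, Ms4a13 and Ms4a18 were at 0 in all 28 cultures, Ms4a1 had at most 11 counts and Ms4a2 at most 7. Of 9 genes that lie between or next to the MS4A genes of the chromosome, 1 reached 10 TPM. This was Ccdc86 (chr19:10941481-10949266), which encodes a nucleolar protein and lies outside the stretch that the members span. It was higher with VWF at 3.5 h (1.55 ± 0.10) and 16 h (1.66 ± 0.17) and with LPS (1.71 ± 0.10 and 2.62 ± 0.17). In control it was lower at 16 h than at 3.5 h (-1.11 ± 0.15, edgeR adjusted p = 0.000272), as were 4.99% of genes.

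A list of 9 genes held partner and signalling proteins described for the family, and 6 were tested. At 16 h, 1 was called lower with VWF, against 4.15% of all genes, and with LPS 2 were called lower, against 12.4%, and 2 higher, against 15.3%. Clec7a, which encodes the Dectin-1 receptor for beta-glucan, was at 86.6 ± 15.1 RPKM (SD, n = 5) in control, 33.4 ± 5.85 (n = 5) with VWF and 29.9 ± 2.31 (n = 4) with LPS at 16 h. It was lower with both, with a log2 fold change of -1.49 ± 0.15 for VWF (edgeR adjusted p = 4.51e-05) and -1.57 ± 0.13 for LPS (edgeR adjusted p = 7.16e-06). Trem2, a lipid-sensing receptor of macrophages, fell with LPS at 16 h by 1.19 on the log2 scale (SE 0.12, edgeR adjusted p = 2.27e-05) and differed by -0.52 ± 0.11 with VWF (edgeR adjusted p = 0.00479), under the fold threshold. Fcer1g, the Fc receptor gamma chain, and Syk, the kinase it recruits, rose with LPS at 16 h by 1.48 ± 0.12 and 1.56 ± 0.23, and Syk rose with VWF at 3.5 h by 1.48 ± 0.14 (edgeR adjusted p = 4.18e-06).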

How the data were processed

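Per the labels, cultures were grouped by treatment and time. Alignment by the authors used STAR and the GRCm38 build, on read pairs of 150 bases, and the table they deposited holds unnormalized counts for 54532 genes. The sources used here do not give its annotation or strand setting. GENCODE M21 supplied exon lengths (54495 genes matched). Counts were fitted with edgeR 4.0.16 (R 4.3.3; robust quasi-likelihood, TMM factors, full library totals) on the groups compared, over genes with at least 10 TPM in 1 or more of those cultures, in 9 pairwise comparisons and 2 interactions, and p-values were adjusted by Benjamini-Hochberg over all genes tested. DESeq2 1.42.0, the tool of the authors, was an alternative, beside other scalings and filters. The fits were tested on simulated data. No culture duplicated another of its own group (chi-square per degree of freedom at least 17.1 over 52 pairs within groups). Pairs across groups were not compared. Same-numbered deviations had correlations over 0.1 in every pair in 1 comparison, that of the 16 h VWF and LPS cultures (0.159 to 0.781, 4 pairs, numbers from the labels). The members, the gene lists and the rule for named genes (all members, all genes of the lists that passed the test, and the 3 most correlated genes of each tested member) were chosen with earlier results of these data known. Promoters came from RefSeq.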

Additional observations from a re-analysis of the deposited data

Results flagged for a closer look

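In 5 of 48 groups of cultures (8 genes in 6 groups), the lowest culture stood apart from the rest by Dixon's criterion, which chance meets in about 1 in 20 groups. Ms4a4a in Control 16 h replicate 5 was at 0.633 RPKM, against 4.4 to 7.63 in the other 4 cultures, and Ms4a6d in the same culture was at 36.7 RPKM, against 57.8 to 65.3. Ms4a4c in VWF 16 h replicate 5 was at 37.7 RPKM, against 88.4 to 115. Ms4a6b in LPS 3.5 h replicate 1 was at 15.3 RPKM (15.35 before rounding), against 22.7 to 24.1, and Ms4a6c in Control 3.5 h replicate 1 was at 19.75 RPKM, against 26.2 to 27.8.

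Effects that differed between the times by the test of the interaction were those of VWF on Ms4a4a (3.06 log2 units larger at 16 h), Ms4a4c (3.73), Ms4a6b (2.95), Ms4a6c (1.91), Ms4a6d (2.23) and Ms4a7 (1.87), and those of LPS on Ms4a4a (4.97), Ms4a4c (5.30), Ms4a6b (4.06), Ms4a6c (2.56) and Ms4a6d (2.85).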

How the results depend on the processing

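DESeq2, median-of-ratios factors and a fit of all groups together kept the call and direction of all 66 values (6 genes in 11 comparisons). With library size scaling the median of all genes moved to -0.22 and -0.54 (VWF and LPS against control at 3.5 h), 0.30 (VWF against LPS at 3.5 h), -0.57 (LPS against control at 16 h), 0.44 (VWF against LPS at 16 h), 0.11 (VWF over time) and 0.14 (VWF interaction). Calls over all genes went from 753 higher and 453 lower to 612 and 643 (VWF, 3.5 h), from 1047 and 963 to 708 and 2157 (LPS, 3.5 h), from 353 and 503 to 751 and 340 (VWF against LPS, 3.5 h), from 1221 and 989 to 793 and 2253 (LPS, 16 h), from 837 and 1095 to 1726 and 700 (VWF against LPS, 16 h) and from 474 and 697 to 612 and 570 (VWF interaction). The members called then numbered 1, 1 and 2 for VWF and LPS against control at 3.5 h and VWF against LPS at 16 h, Ms4a4a with LPS at 3.5 h was at -0.10, and Ms4a6b in VWF against LPS at 3.5 h at 0.0763. With no fold threshold, 5 members were called for VWF against control at 3.5 h, beside 3578 of 8200 genes. For LPS at 3.5 h 5 were called, beside 5384 of 8190 genes, and for VWF over time 5, beside 5392 of 7927. For VWF against LPS at 3.5 h 2 were called, beside 3768 of 7500 genes. With no filter, Ms4a4b and Ms4a4d were also tested, as with filterByExpr except that 7 members were tested for VWF against control at 3.5 h and for control over time. With either, 5 members were called for LPS against control at 3.5 h, beside 3917 of 14265 genes with filterByExpr and 4542 of 25626 with no filter. For VWF against LPS at 3.5 h 2 were called, beside 1776 of 13959 and 1942 of 25250 genes. In this comparison Ms4a4a was at -0.021 with filterByExpr and -0.011 with no filter. Over all genes, 679 to 2301 were called per comparison, against 2163 to 5392 with no fold threshold, 1362 to 4116 with filterByExpr and 1378 to 4542 with no filter.

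When each culture was left out in turn, members called ranged from 4 to 5 for VWF against LPS at 16 h and for control over time, and from 5 to 6 for the LPS interaction, and kept their number elsewhere. The 5 came without LPS 16 h replicate 4 and the 4 in control over time without Control 3.5 h replicate 1. Ms4a4a in VWF against LPS at 3.5 h lay between -0.20 and 0.31, below 0 without LPS replicate 1 (-0.20) or 4 (-0.07) or VWF replicate 5 (-0.01). Ms4a7 in the LPS interaction (0.81 to 1.17) was called in 8 of 18 such fits. With Control 16 h replicate 5 and LPS 16 h replicate 4 both left out, an alternative chosen after seeing the data, the 6 members stayed called for LPS against control at 16 h and Ms4a7 was called in the LPS interaction (1.02). Fitting the replicate number as a block gave 2, 3, 1, 6, 6 and 4 members called for the comparisons within a time, 4, 3 and 5 over time, and 6 and 6 for the interactions. It ended the call of Ms4a4c in control over time (-1.03) and added that of Ms4a7 in the LPS interaction (1.02). Levels as TPM use no TMM factors and also divide by the sum of length-scaled counts in place of library size. They were higher than the RPKM in every group, and the order of some cultures changed. At 3.5 h the mean TPM of Ms4a4a was 107 in control and 89.7 with LPS. At 16 h Ms4a6d was at 1018 to 1539 TPM with VWF and overlapped LPS, at 1503 to 2601. Ms4a6c also overlapped, at 167 to 307 TPM with VWF and 196 to 481 with LPS. Ms4a7 did not overlap at 16 h, at 602 to 795 TPM with VWF and 336 to 417 with LPS. The depth limits Ms4a4b and Ms4a4d, with 0 to 276 counts per culture.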
